A study of Mus musculus with 13 samples.

Results

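The forkhead factors examined here are 9 genes that act in mesoderm, endoderm and endothelium, chosen by name: Foxo1 and Foxo3, Foxp1 and Foxp4, Foxh1, Foxc1 and Foxc2, Foxf1, and Foxa2. Of the 9 genes, 7 had a row among the 45250 genes of the expression tables, and Foxc2 and Foxf1 were not analysed here. Of the 7, 6 had a row that carries their own symbol only. The row of Foxp1 (XLOC_033135) is a merged locus that also carries Eif4e3, a cap-binding protein, and the gene models Gm20696 and AC155839.1, so its values cannot be assigned to Foxp1 alone and it is called the Foxp1 row below.

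The study asked at which stage LMO2, a bridging protein of the TAL1 transcription factor complex, is needed for blood development from mouse embryonic stem (ES) cells in culture. RNAseq was done on polyA RNA of Flk-1+ cells, taken from embryoid bodies with magnetic beads as the haemangioblast (HB) population, in 3 libraries each of WT, Lmo2-/- and Tal1-/- genotype. It was also done on haemogenic endothelium 1 (HE1), sorted from blast cultures of HB as Tie2+, Kit+ and CD41- cells, in 2 libraries each of WT and Lmo2-/- genotype. The WT cells were of the CCB line, and 1 ES cell line is named for each of the Lmo2-/- and Tal1-/- genotypes, so a difference between genotypes and a difference between lines cannot be told apart. ES cells had been kept on a layer of mouse embryonic fibroblasts and were moved to gelatin without that layer before differentiation began. The study describes the libraries of each group as biological replicates. In bulk RNA fewer cells of a type and less RNA per cell cannot be told apart.

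Forkhead factors bind DNA through a winged-helix domain of similar structure in all members. FOXO proteins are kept out of the nucleus when AKT phosphorylates them downstream of growth factor signals, and FOXO1 is needed for the vessels of the mouse embryo. FOXP proteins are mostly repressors that pair through a leucine zipper, FOXH1 brings SMAD proteins to DNA in response to Nodal and activin, FOXC and FOXF proteins pattern mesoderm and vessels, and FOXA2 opens chromatin in endoderm and the node.

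Expression is given as FPKM (sequenced fragments divided by transcript length and by the size of the library), which is a level per length and can be set side by side between genes. No fragment counts were used. The study states only a minimum number of reads for all libraries, so the depth of each library is unknown. A value printed as 0 is only listed at 0. Differences between groups were tested with limma on log2(FPKM + 1) over all 13802 genes that passed the filter, and a gene counted as called when its adjusted p was below 0.05 and either group of the comparison averaged more than 10 FPKM. Of the 7 forkhead genes with a row, 6 passed the filter of at least 1 FPKM in at least 2 libraries, and Foxa2 did not.

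The targeted genes were read first. Lmo2 had FPKM of 22.8, 30.8 and 21.6 in WT Flk-1+ cells and 2.63, 6.48 and 2.17 in Lmo2-/- Flk-1+ cells. Tal1 had 37.4, 25.6 and 22.0 FPKM in WT Flk-1+ cells and 2.74, 3.41 and 2.88 FPKM in Tal1-/- Flk-1+ cells. In HE1, Lmo2 had 4.3 and 20.6 FPKM in the libraries labelled WT and 6.42 and 0 FPKM in those labelled Lmo2-/-. The HE1 groups therefore overlapped in Lmo2, and genotype directions in HE1 depend on the labels alone. Of the sort markers, Kdr, which encodes Flk-1, lay between 68.7 and 275 FPKM in all 13 libraries. Tek, which encodes Tie2, was at most 2.27 FPKM in Flk-1+ cells and 121 to 176 FPKM in HE1. Kit was at most 10.7 FPKM in Flk-1+ cells and 42.4 to 68.5 FPKM in HE1. Itga2b, which encodes CD41, had 15.4 and 10.4 FPKM in WT HE1 and 19.8 and 0 FPKM in Lmo2-/- HE1, although these cells were gated as CD41-.

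Replicate 1 of Lmo2-/- HE1 stood apart from the other 12 libraries. It had 9681 genes above 0 FPKM against 11845 to 15609 in the others, and 183 of 4062 highly expressed genes were listed at 0 against at most 55. The median FPKM of its tested genes was 7.45 against 4.29 to 5.68. The changes of the forkhead genes that use this library are therefore also given without it. From Lmo2-/- Flk-1+ to Lmo2-/- HE1 all tested genes had a median log2 fold change of 0.30, and those that reach 10 FPKM in at least 1 library had a median of 0.81. The former became 0.02 after quantile normalisation and -0.35 after scaling all libraries to a common median of the genes expressed in all of them.

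Foxo1 (XLOC_022256) lies on chromosome 3 of GRCm38 from 52268336 to 52353221 on the plus strand, with 3 exons, and overlaps the gene models Gm20402 on the other strand and Gm38034. Foxo3 (XLOC_004313) lies on chromosome 10 from 42181841 to 42276755 on the minus strand. Foxp4 (XLOC_016259) lies on chromosome 17 from 47867133 to 47924645 on the minus strand and overlaps Gm15556. The RefSeq sequence upstream of the start of these 3 genes (GRCm38.p6, the gene's own strand) is shown. They were taken because, among the chosen genes, they were the single-symbol rows with the highest levels in Lmo2-/- HE1. The sequence stops where the annotated gene begins. Capitals mark E-boxes, CANNTG, the letters that TAL1 heterodimers bind, and GATA, the letters that GATA factors bind, on either strand:
Foxo1, chr3:52268087-52268335, plus strand: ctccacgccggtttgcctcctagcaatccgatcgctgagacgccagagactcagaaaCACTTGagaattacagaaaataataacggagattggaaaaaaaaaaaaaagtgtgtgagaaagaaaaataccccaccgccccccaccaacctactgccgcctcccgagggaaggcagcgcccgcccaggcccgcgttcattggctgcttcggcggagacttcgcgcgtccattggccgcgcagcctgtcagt
Foxo3, chr10:42276756-42276945, minus strand: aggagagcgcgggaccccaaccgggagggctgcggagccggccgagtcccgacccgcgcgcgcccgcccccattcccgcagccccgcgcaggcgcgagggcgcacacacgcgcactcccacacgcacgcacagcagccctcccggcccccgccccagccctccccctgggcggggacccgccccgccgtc
Foxp4, chr17:47924646-47924882, minus strand: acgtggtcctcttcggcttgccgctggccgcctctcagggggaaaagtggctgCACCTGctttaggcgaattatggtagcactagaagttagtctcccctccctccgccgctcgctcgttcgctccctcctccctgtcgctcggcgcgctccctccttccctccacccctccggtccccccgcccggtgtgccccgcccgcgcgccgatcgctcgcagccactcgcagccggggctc
In the 250 bases before the RefSeq start, Foxo1 had 56.0 percent G and C and 20 CpG, Foxo3 had 76.4 percent and 31 CpG, and Foxp4 had 69.6 percent and 27 CpG. The medians over all 32851 promoters of the same length were 52.4 percent and 6 CpG. Foxo1 and Foxp4 each held 1 E-box, and Foxo3 held 0. GATA was in 0 of these 3 windows, as was the forkhead core TAAACA. Of all promoters, 66.2 percent held an E-box, 53.6 percent held GATA and 12 percent held TAAACA. A match in such short letters is a description of the window and not a binding site.

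Foxo1 rose from Flk-1+ cells to HE1 in WT and in Lmo2-/- cells. Its FPKM was 3.19, 1.34 and 1.52 in WT Flk-1+ cells and 32.0 and 27.7 in WT HE1. It was 1.90, 2.08 and 1.86 in Lmo2-/- Flk-1+ cells and 52.5 and 41.9 in Lmo2-/- HE1. Every HE1 library thus lay above every Flk-1+ library, with no overlap in either genotype. The mean FPKM rose from 2.02 ± 1.02 (SD, n = 3) to 29.8 ± 3.06 (SD, n = 2) in WT, a ratio of 14.8. In limma the log2 fold change was 3.40 with an SE of 0.49 and an adjusted p of 0.000756. In Lmo2-/- cells the mean rose from 1.95 ± 0.118 (SD, n = 3) to 47.2 ± 7.52 (SD, n = 2), a ratio of 24.2, and the limma log2 fold change was 4.02 with an SE of 0.49 and an adjusted p of 0.000179. The exact permutation test over the libraries gave a two-sided p of 0.10 for each genotype, the smallest that 3 against 2 libraries allow. Without replicate 1 of Lmo2-/- HE1 the Lmo2-/- log2 fold change was 4.18, with a limma adjusted p of 0.00143.

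A difference in this rise between the genotypes was not detectable with these libraries. The HE1 libraries labelled Lmo2-/- both exceeded those labelled WT, but the log2 fold change was 0.64 with an SE of 0.53 and a limma adjusted p of 0.528. The exact permutation p was 0.33, the smallest possible for 2 against 2 libraries. The interaction of genotype and stage, which compares the rises, was 0.62 with an SE of 0.69 and a limma adjusted p of 0.743. After quantile normalisation the difference between the HE1 groups was 0.11. In the authors' pooled values Foxo1 was 29.3 FPKM in WT HE1 and 31.6 FPKM in Lmo2-/- HE1, nearer to each other than the means of the libraries. In Tal1-/- Flk-1+ cells Foxo1 had 4.39, 2.07 and 0.856 FPKM, a range that spanned the WT values, and the log2 fold change from WT was 0.11 with an SE of 0.44.

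**Figure D1:**
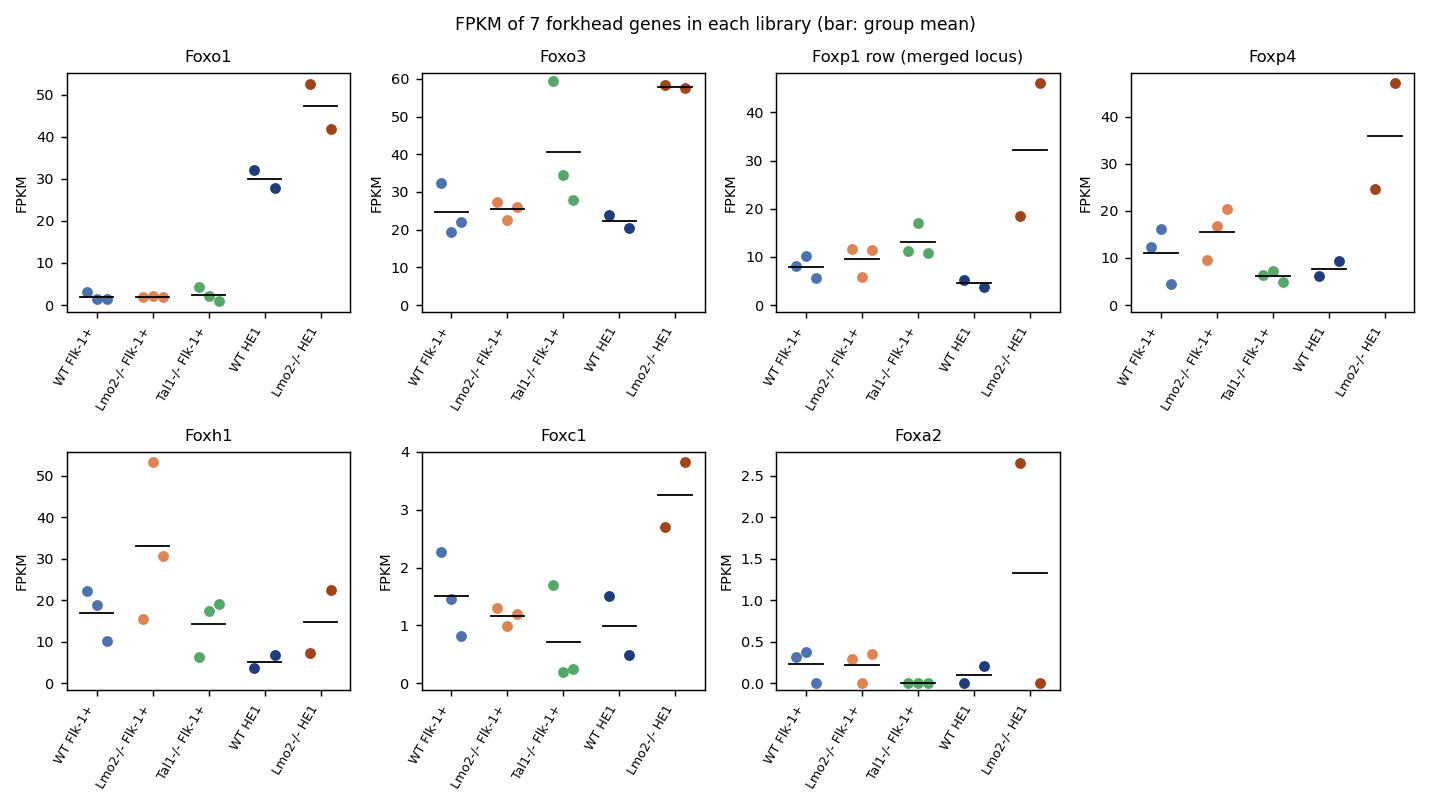
FPKM (vertical axis, a linear scale of its own in each panel) of the 7 forkhead genes with a row in each library of the 5 groups, with points for libraries and bars for group means. Foxo1 sits between 0.856 and 4.39 FPKM in the 9 Flk-1+ libraries and between 27.7 and 52.5 FPKM in the 4 HE1 libraries.

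Foxo3, the other FOXO gene among the chosen genes, had a different course. Its FPKM was 32.3, 19.5 and 22.0 in WT Flk-1+ cells, 27.4, 22.7 and 26.1 in Lmo2-/- Flk-1+ cells and 59.5, 34.4 and 27.9 in Tal1-/- Flk-1+ cells. It was 24.0 and 20.4 in WT HE1 and 58.3 and 57.6 in Lmo2-/- HE1. WT cells of both stages therefore overlapped, with a log2 fold change of -0.11 and an SE of 0.36. Both Lmo2-/- HE1 libraries lay above all Lmo2-/- Flk-1+ libraries. That change was 1.16 on the log2 scale with an SE of 0.36 and a limma adjusted p of 0.032. The call depended on the scaling and on single libraries. The log2 fold change was 0.08 after quantile normalisation and 0.18 on a common median, and the adjusted p was 0.102 in limma without replicate 1 of Lmo2-/- HE1. Between the HE1 groups Foxo3 was 2.61 times higher in the libraries labelled Lmo2-/-, with a log2 fold change of 1.35, an SE of 0.40 and a limma adjusted p of 0.0743. The authors' pooled values were 22.5 FPKM in WT HE1 and 40.8 FPKM in Lmo2-/- HE1. In Tal1-/- Flk-1+ cells the difference from WT was 0.66 with an SE of 0.32 and a limma adjusted p of 0.852. The WT and Tal1-/- libraries overlapped, and replicate 0 was the highest of its group in both.

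The make-up of the FOXO family differed between the stages. Of the summed FPKM of Foxo1, Foxo3 and Foxo4, Foxo1 took 1.81 to 6.44 percent in the 9 Flk-1+ libraries of all genotypes. It took 41.2 and 50.4 percent in WT HE1 and 42.7 and 30.4 percent in Lmo2-/- HE1. The ratio of Foxo1 to Foxo3, which does not depend on the scaling of a library, was 0.0307 to 0.0989 in Flk-1+ cells. It was 1.33 and 1.36 in WT HE1 and 0.900 and 0.728 in Lmo2-/- HE1. Foxo1 thus exceeded Foxo3 in both WT HE1 libraries and was below Foxo3 in all other libraries. Foxo4, which shares the AKT control of the other FOXO proteins, spanned 6.90 to 47.4 FPKM over all libraries and was not called in any comparison.

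**Figure D2:**
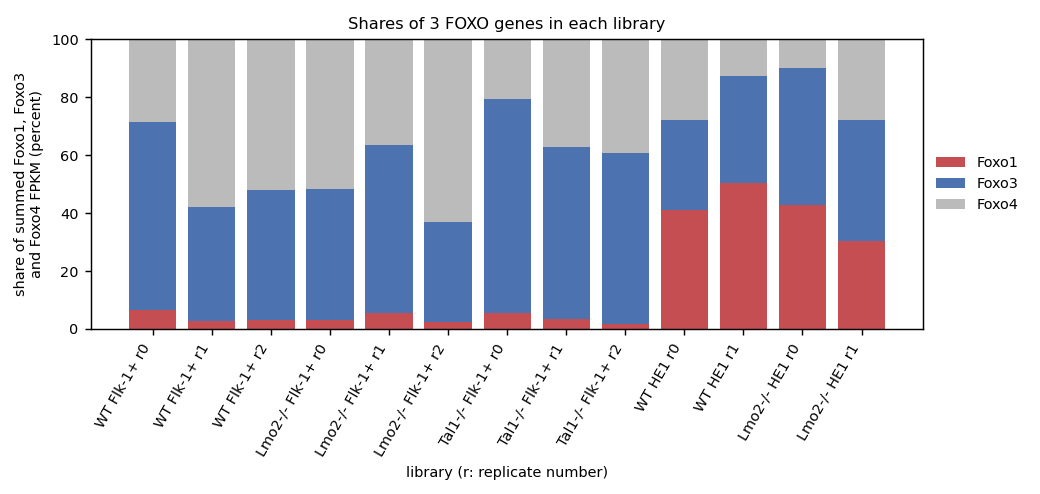
Share (percent, vertical axis) of the summed FPKM of Foxo1, Foxo3 and Foxo4 in each of the 13 libraries (horizontal axis). The Foxo1 share is at most 6.44 percent in Flk-1+ libraries and at least 30.4 percent in HE1 libraries.

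The Foxp1 row, on chromosome 6 from 98925338 to 99666797, had the widest ratio between the HE1 groups among the 6 chosen genes that were tested. Its FPKM was 5.19 and 3.81 in WT HE1 and 18.4 and 46.0 in Lmo2-/- HE1, so the Lmo2-/- libraries were both higher but differed widely from each other. The ratio of the means was 7.16, and the log2 fold change was 2.47 with an SE of 0.52 and a limma adjusted p of 0.0176. Without replicate 1 of Lmo2-/- HE1 the change was 1.83 and its adjusted p in limma was 0.132, and after quantile normalisation they were 1.86 and 0.0636. The authors' pooled values of the row were 4.64 FPKM in WT HE1 and 20 FPKM in Lmo2-/- HE1. In Flk-1+ cells the row had 8.09, 10.1 and 5.58 FPKM in WT, 11.6, 5.87 and 11.4 FPKM in Lmo2-/- and 11.2, 17.1 and 10.9 FPKM in Tal1-/-. From Lmo2-/- Flk-1+ cells to Lmo2-/- HE1 it rose by 1.56 on the log2 scale with an SE of 0.47 and a limma adjusted p of 0.0278. This call was lost without replicate 1 of Lmo2-/- HE1, at 0.92, and on the other scalings, at 0.62 and 0.61. In WT both HE1 libraries lay below all Flk-1+ libraries, at -0.68 with an SE of 0.47 and a limma adjusted p of 0.416. The difference between these courses, the interaction, was 2.24 with an SE of 0.67 and a limma adjusted p of 0.18.

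Foxp4, a partner of FOXP1 in repressor complexes, had 6.10 and 9.30 FPKM in WT HE1 and 24.6 and 47.1 FPKM in Lmo2-/- HE1. As in the Foxp1 row, both Lmo2-/- libraries were higher and replicate 1 was the higher of them. The ratio of the means was 4.66 and the log2 fold change 2.04 with an SE of 0.57, but the limma adjusted p of 0.0598 missed the threshold. The authors' pooled values were 5.29 and 17 FPKM. In Flk-1+ cells Foxp4 had 12.3, 16.1 and 4.52 FPKM in WT, 9.59, 16.8 and 20.4 FPKM in Lmo2-/- and 6.47, 7.27 and 4.93 FPKM in Tal1-/-. The Tal1-/- values lay below all Lmo2-/- values, with a log2 fold change of -1.15, an SE of 0.46 and a limma adjusted p of 0.78. The stage changes were -0.34 with an SE of 0.52 in WT and 1.14 with an SE of 0.52 in Lmo2-/-, with limma adjusted p of 0.742 and 0.122.

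Foxh1 (XLOC_013377, chromosome 15 from 76668225 to 76669948, minus strand), the SMAD partner of mesendoderm, was among the highest of the chosen genes in Flk-1+ cells. It had 22.3, 18.8 and 10.1 FPKM in WT, 15.4, 53.4 and 30.6 FPKM in Lmo2-/- and 6.39, 17.4 and 19.2 FPKM in Tal1-/- Flk-1+ cells. It had 3.63 and 6.88 FPKM in WT HE1 and 7.27 and 22.5 FPKM in Lmo2-/- HE1. In WT both HE1 libraries were below all Flk-1+ libraries, and the log2 fold change was -1.51 with an SE of 0.63 and a limma adjusted p of 0.161. In Lmo2-/- cells the stages overlapped, because replicate 1 of HE1 lay above replicate 0 of Flk-1+. The change there was -1.12 with an SE of 0.63 and a limma adjusted p of 0.204. It was called after quantile normalisation, at -1.95 with a limma adjusted p of 0.0354, and on a common median, at -2.06 with 0.0292, and it shrank to -0.37 without replicate 0 of Lmo2-/- HE1. The higher mean of Lmo2-/- than of WT Flk-1+ cells, 33.1 ± 19.1 against 17.1 ± 6.31 FPKM (SD, n = 3 each), rested on overlapping libraries, with a log2 fold change of 0.82 and an SE of 0.56.

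Foxc1 (XLOC_009493, a single-exon gene on chromosome 13 from 31806633 to 31812476, plus strand) was low throughout. It had 2.26, 1.46 and 0.822 FPKM in WT, 1.30, 0.986 and 1.19 FPKM in Lmo2-/- and 1.69, 0.188 and 0.245 FPKM in Tal1-/- Flk-1+ cells. It had 1.5 and 0.485 FPKM in WT HE1 and 2.70 and 3.82 FPKM in Lmo2-/- HE1, the highest values of all libraries. At these levels the call rule, which needs a mean above 10 FPKM, could not be met. The log2 fold change between the HE1 groups was 1.13 with an SE of 0.53 and a limma adjusted p of 0.247. Foxa2 (XLOC_021516, chromosome 2 from 148042877 to 148046969, minus strand) was listed at 0 in all Tal1-/- libraries and reached at most 0.378 FPKM in the other Flk-1+ libraries. It was listed at 0 in 1 of the WT HE1 libraries and had 0.211 FPKM in the other. In Lmo2-/- HE1 it had 2.66 FPKM in replicate 0 and was listed at 0 in replicate 1. The endoderm and node list, which FOXA2 is known to act with, summed to 9.9 to 28.2 FPKM in Flk-1+ cells over 15 genes. In HE1 it summed to between 14.9 and 38.7 FPKM in WT and between 12.4 and 22.3 FPKM in Lmo2-/-. There 12 and 10 of the 15 genes were listed at 0 in both libraries. Of this list, Hhex had 8.2 and 20 FPKM in WT HE1 and 15.4 and 12.4 FPKM in Lmo2-/- HE1. Sox17 had 6.7 and 18.5 against 3.55 and 0 FPKM.

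The order by level of the chosen genes with a row, without the other forkhead genes, differed between the groups. In WT Flk-1+ cells the order of the means was Foxo3, Foxh1, Foxp4, the Foxp1 row, Foxo1, Foxc1 and Foxa2. The libraries of neighbours in this order overlapped, except that the Foxp1 row lay above Foxo1 and Foxc1 above Foxa2 in all of them. In Lmo2-/- Flk-1+ cells Foxh1 had the highest mean but overlapped Foxo3. In Tal1-/- Flk-1+ cells Foxo3 was above all others without overlap. In WT HE1 Foxo1 led, then Foxo3, both without overlap with the next gene. In Lmo2-/- HE1 Foxo3 led without overlap, while Foxo1, Foxp4, the Foxp1 row and Foxh1 overlapped as neighbours.

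The counts of calls put these genes beside all others. Between WT and Lmo2-/- Flk-1+ cells and between WT and Tal1-/- Flk-1+ cells, limma called 0 of the 6 forkhead genes tested and 0 percent of all genes. At an unadjusted limma p below 0.05 there were 0 of the 6 in each of these comparisons. Of all genes there were 307 and 843, or 2.22 and 6.11 percent. From Lmo2-/- Flk-1+ to Tal1-/- Flk-1+ cells limma called 0 of the 6 and 0.0145 percent of all genes. Here 1 of the 6, Foxp4, was below an unadjusted 0.05, against 822 of all genes, or 5.96 percent. The Tal1-/- libraries all lay above the WT libraries for the Foxp1 row, as they did for 5.25 percent of all genes. They all lay above the Lmo2-/- Flk-1+ libraries for Foxo3, as for 6.59 percent, and below them for Foxp4, as for 6.66 percent. Differences between the 3 Flk-1+ populations in these genes were thus not detectable by this fit with 3 libraries each. The study reported differentially expressed genes between these populations with Cuffdiff, a different test, and those comparisons were not used here. The targeted genes were not called by limma either. Lmo2 changed by -2.55 on the log2 scale from WT to Lmo2-/- Flk-1+ cells. Tal1 changed by -2.84 from WT to Tal1-/- Flk-1+ cells, with a limma adjusted p of 0.101.

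From WT Flk-1+ to WT HE1 limma called 1 of the 6 genes, Foxo1, against 6.98 percent of all genes. The HE1 libraries were all higher for Foxo1, as for 27.6 percent of all genes, and all lower for Foxh1 and the Foxp1 row, as for 17.2 percent. The median log2 fold change was -0.34 over the 6 genes and 0.11 over all genes. From Lmo2-/- Flk-1+ cells to Lmo2-/- HE1 it called 3 of the 6, Foxo1, Foxo3 and the Foxp1 row, against 19.6 percent of all genes. All HE1 libraries were higher for 5 of the 6, against 31.9 percent of all genes, and the medians were 1.15 and 0.30. Only Foxo1 stayed called in this comparison without replicate 1 of Lmo2-/- HE1. Between WT and Lmo2-/- HE1 limma called 1 of the 6, the Foxp1 row, against 3.01 percent of all genes. The Lmo2-/- libraries were all higher for 6 of the 6 genes, against 25.9 percent of all genes, with medians of 1.28 and 0.15. The interaction was called for 0 of the 6 genes and for 0.348 percent of all genes. Its unadjusted limma p was below 0.05 for 2 of the 6, against 1672 of all genes, or 12.1 percent.

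**Figure D3:**
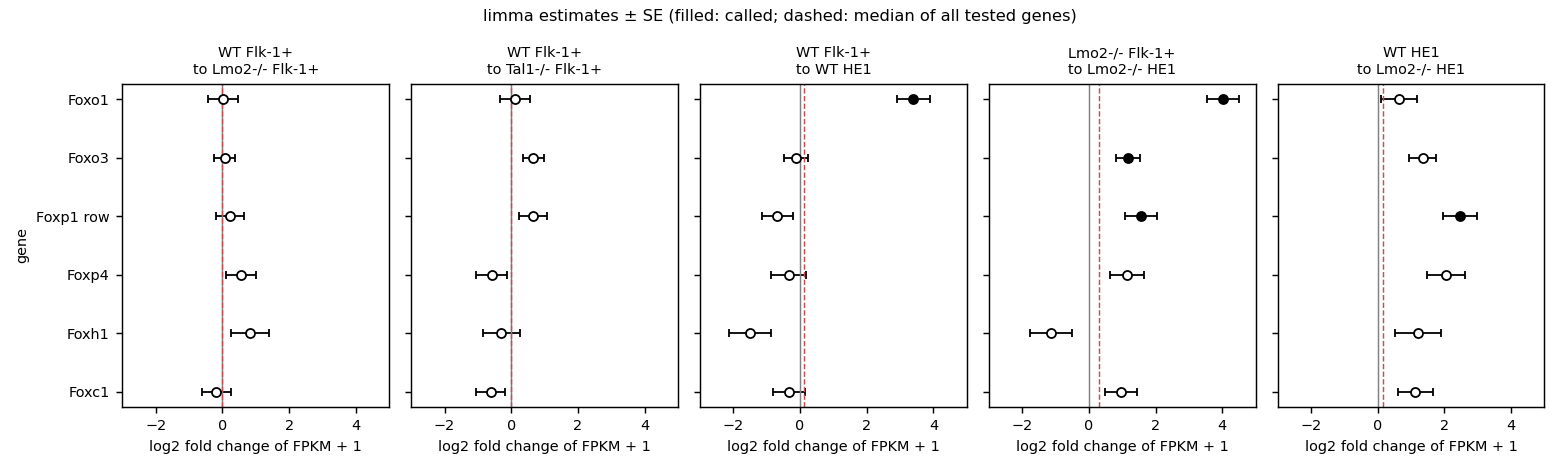
limma log2 fold change of FPKM + 1 (horizontal axis, bars are SE) of the 6 forkhead genes tested in 5 comparisons, filled where called, with the median of all tested genes dashed. Foxo1 stands at 3.40 and 4.02 in the stage comparisons of WT and Lmo2-/- cells, and all 6 genes lie above 0 from WT HE1 to Lmo2-/- HE1.

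Other measures of the HE1 libraries are given here beside the higher forkhead values in Lmo2-/- HE1. Between the HE1 groups all 6 genes stayed above 0 after quantile normalisation and on a common median, but their median fell to 0.88 and 0.78. The calls were then 0 and 1. The 7 fibroblast markers summed to 29.2 and 35.7 FPKM in WT HE1 and to between 177 and 762 FPKM in Lmo2-/- HE1, although HE1 was sorted for Tie2 and Kit, and Thy1 was listed at 0 in all 4 libraries. The 5 smooth muscle markers summed to between 184 and 219 FPKM in WT HE1 and between 331 and 840 FPKM in Lmo2-/- HE1. Acta2, a smooth muscle actin, carried this difference, at 165 and 114 against 263 and 816 FPKM, while Tagln had 50.5 and 53.7 against 59 and 24.1 FPKM. The 7 cardiac markers summed to between 12.1 and 26.8 FPKM and between 128 and 210 FPKM. Hand1, a factor of early mesoderm and heart, carried this difference, at 17.7 and 2.96 against 117 and 210 FPKM. Tnnt2 had 7.8 and 6.57 against 4.37 and 0 FPKM, and Myl4 and Tbx5 were listed at 0 in all 4 HE1 libraries. The 7 endothelial markers summed to between 936 and 987 FPKM in WT HE1 and between 806 and 808 FPKM in Lmo2-/- HE1, and all 5 pluripotency markers were listed at 0 in all 4 HE1 libraries. The 6 blood markers summed to between 17.7 and 21.3 FPKM and between 7.83 and 32.9 FPKM. The part of these cells and of replicate 1 in the forkhead values was not tested.

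Without replicate 1 of Lmo2-/- HE1 the 6 genes also stayed above 0 between the HE1 groups, and limma called 0 of them. The log2 fold change was then 0.80 for Foxo1 with a limma adjusted p of 0.644, and 1.36 for Foxo3 with 0.219. It was 1.58 for Foxp4 with a limma adjusted p of 0.309, 0.45 for Foxh1 with 0.886 and 0.94 for Foxc1 with 0.562. From Lmo2-/- Flk-1+ to Lmo2-/- HE1 without this library Foxo3 changed by 1.17, Foxp4 by 0.69, Foxc1 by 0.78 and Foxh1 by -1.88, with limma adjusted p of 0.102, 0.492, 0.404 and 0.104.

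**Figure D4:**
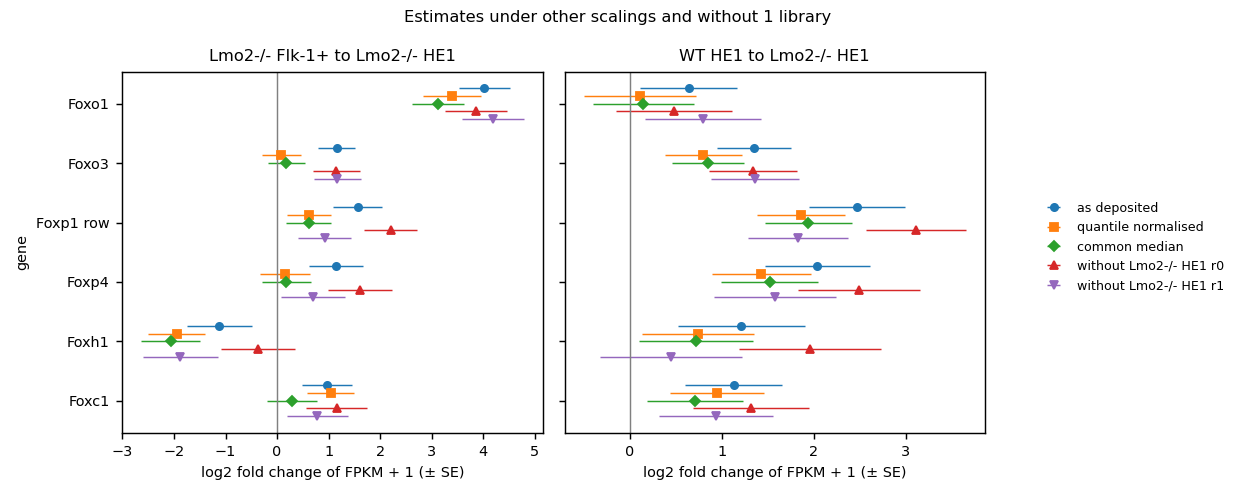
limma log2 fold change of FPKM + 1 (horizontal axis, bars are SE) of the 6 forkhead genes tested, as deposited, on the other scalings and without each Lmo2-/- HE1 library. Foxo1 stays between 3.12 and 4.18 from Lmo2-/- Flk-1+ to Lmo2-/- HE1, while Foxo3 falls from 1.16 to 0.08 after quantile normalisation.

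Among 35 other forkhead genes, 34 had a row and 11 passed the filter. In WT, 1 of the 11 was called from Flk-1+ cells to HE1, against 6.98 percent of all genes called in either direction. This was Foxn3, a checkpoint gene, which had 17.7, 15.9 and 12.9 FPKM in Flk-1+ cells and 35.6 and 48.2 FPKM in HE1, a log2 fold change of 1.37 with an SE of 0.38 and a limma adjusted p of 0.0389. In Lmo2-/- cells 3 were called, all higher in HE1, against 19.6 percent of all genes called in either direction. They were Foxn2 at 1.62, Foxn3 at 1.30 and the row of Foxm1 at 1.35. Foxm1, a cell division factor, shares its row with Nrip2 and other models and cannot be told from them. None of the calls of these 11 genes held after quantile normalisation or on a common median, and in Lmo2-/- cells only that of Foxn2 held without replicate 1 of Lmo2-/- HE1. Between the HE1 groups 0 of the 11 were called, against 3.01 percent of all genes. All 11 had a log2 fold change above 0, against 55 percent of all genes, with a median of 0.76. After quantile normalisation 10 of them did, and the median was 0.36. The ubiquitous Foxk1, Foxk2 and Foxj3 exceeded a mean of 10 FPKM in at least 1 group and were called in no comparison, as did the row of Foxj2, which reached 47.9 FPKM in replicate 1 of Lmo2-/- HE1.

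Of 14 genes that act upstream of or with FOXO proteins, limma called 1 from WT Flk-1+ to WT HE1 and 4 from Lmo2-/- Flk-1+ to Lmo2-/- HE1, all higher in HE1, with list medians of 0.56 and 1.02. Of all genes 6.98 and 19.6 percent were called in these comparisons, against which the counts of this and the following lists stand. Akt1, the kinase that phosphorylates FOXO proteins, rose from 10.5 ± 3.58 (SD, n = 3) to 32.9 ± 1.69 FPKM (SD, n = 2) in WT. In Lmo2-/- cells the 4 were Pik3ca, the catalytic subunit of PI3 kinase, at 3.18, the receptor adaptor Irs1 at 1.59, Akt1 at 1.57 and the acetyltransferase Crebbp at 1.45. Irs1 was also the call of this list between the HE1 groups, from 3.97 ± 1.70 to 28.0 ± 2.51 FPKM (SD, n = 2 each), with a log2 fold change of 2.59 and a limma adjusted p of 0.0093. Of the stage calls, none held after quantile normalisation and Pik3ca held on a common median, as it did without replicate 1 of Lmo2-/- HE1, where Akt1, Irs1 and Crebbp did not. Between the HE1 groups Irs1 held on both scalings but not without that library.

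Of 16 known FOXO target genes, 1 was called from WT Flk-1+ to WT HE1, against 6.98 percent of all genes, and 3 from Lmo2-/- Flk-1+ to Lmo2-/- HE1, against 19.6 percent, all higher in HE1. Klf2, a flow-responsive endothelial factor, was at most 0.632 FPKM in Flk-1+ cells and had 10.4 and 14.8 FPKM in WT HE1 and 19 and 11 FPKM in Lmo2-/- HE1. Its log2 fold changes were 3.54 in WT and 3.55 in Lmo2-/- cells. Cat, which encodes catalase, and Bcl2l11, which encodes the death factor BIM, were called in Lmo2-/- cells at 2.16 and 1.85. The other targets were not called, and the list medians were 0.01 in WT and 0.92 in Lmo2-/- cells, against 0.11 and 0.30 for all genes. Klf2 stayed called in WT, and Cat in Lmo2-/- cells, after quantile normalisation and on a common median. Klf2, Cat and Bcl2l11 stayed called in Lmo2-/- cells without replicate 1 of Lmo2-/- HE1.

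Of 13 partners and targets of FOXH1, 11 were tested. Eomes, Lhx1 and Mixl1, factors of mesendoderm, fell in both genotypes, under every scaling tried and in Lmo2-/- cells also without replicate 1 of Lmo2-/- HE1. Eomes had 119, 122 and 98.3 FPKM in WT Flk-1+ cells and 1.64 and 0.811 FPKM in WT HE1, and its log2 fold changes were -5.70 in WT and -5.49 in Lmo2-/- cells. Lhx1 had log2 fold changes of -5.98 and -4.89, and Mixl1 had -5.64 and -3.39. Mef2c, a muscle and vessel factor, rose in WT by 2.94 with a limma adjusted p of 0.0168. In Lmo2-/- cells Smad3, a SMAD that FOXH1 binds, was called at 1.89, but not without that library. Smad3 lies outside the rule for naming genes and was named after its values were seen.

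Of 16 genes downstream of FOXC and FOXF factors in mesoderm and vessels, 15 were tested, and in each genotype 4 were called higher and 1 lower in HE1. Cdh5, the endothelial cadherin, had log2 fold changes of 6.65 in WT and 6.97 in Lmo2-/- cells, and Tek, which was also used for the sort, had 5.71 and 6.55. S1pr1, a lipid receptor of vessels, had 4.17 and 3.67. Cxcr4, a chemokine receptor of early mesoderm, had -4.55 and -4.06. These 4 genes stayed called on the other scalings and, in Lmo2-/- cells, without replicate 1 of Lmo2-/- HE1. The remaining rises were of the Notch receptors Notch4 in WT, at 3.54, and Notch1 in Lmo2-/- cells, at 2.43 but not without that library, which were named after their values were seen. Bmp4, the call of this list between the HE1 groups at 2.95 with a limma adjusted p of 0.0304, had a mean of 134 ± 143 FPKM (SD, n = 2) in Lmo2-/- HE1 and lost its call without replicate 1. It too was named afterwards. Among 12 corepressors that FOXP proteins recruit, 0 were called from Flk-1+ to HE1 in WT. In Lmo2-/- cells Gatad2a was called at 1.38, but not on the other scalings or without replicate 1 of Lmo2-/- HE1. Of 10 tested endoderm genes, Sox17 was called in WT at 2.50 and Hhex in Lmo2-/- cells at 2.87, both of which endothelium also expresses. Of the neighbours of Foxc1, 4 were tested and Exoc2, an exocyst subunit, was called in Lmo2-/- cells at 1.48, though not on the other scalings. Hhex and Exoc2 stayed called without replicate 1 of Lmo2-/- HE1. No gene of these lists was called between the Flk-1+ groups.

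The genes whose level followed each forkhead gene most closely over the 13 libraries are given as a description, since these libraries share groups and scaling. For Foxo1 they were Tanc1, a scaffold protein gene, and Sh3pxd2b, a podosome adaptor gene, each with a Pearson r of 0.99 and a Spearman rho of 0.97. Tanc1 had mean FPKM of 17.4, 16.9 and 17.6 in Flk-1+ cells of WT, Lmo2-/- and Tal1-/- genotype and 96.3 and 137 in WT and Lmo2-/- HE1. For Foxo3 they were Pogk and Ext1, a heparan sulphate polymerase gene, with r of 0.93 and 0.91. For Foxp4 they were Ptpn11, which encodes the phosphatase SHP2, and Sipa1l1, with r of 0.94 and 0.92, and for the Foxp1 row Klhl12 and Plce1, with 0.93 and 0.92. For Foxh1 they were Mlf2 and Zfp523, with 0.89 and 0.88, and for Foxc1 Mttp and Sh3d21, also with 0.89 and 0.88. All of these but Mlf2 and Zfp523 had their highest group mean in Lmo2-/- HE1.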

How the data were processed

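Per the labels and the methods of the study, the authors aligned paired-end RNAseq reads to GRCm38 with TopHat2 2.0.9, assembled transcripts with Cufflinks 2.0.0, merged them with Cuffmerge and deposited FPKM per library from Cuffnorm. They also deposited FPKM per condition from Cuffdiff 2.0.1, with replicates pooled and quartile normalisation, quoted here as the authors' pooled values. A deposited table of the authors' own comparisons (fold changes and p-values) was not used. All per-sample columns were used, so 0 were left out. Gene positions are from GENCODE M21.

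Genes with a locus above 200 bp (42236 of 45250) and at least 1 FPKM in at least 2 of 13 libraries were tested, 13802 in all, in a single fit of limma 3.58.1 (R 4.3.3) with a mean-variance trend on log2(FPKM + 1), which understates the change of low genes. The tests were two-sided, with Benjamini-Hochberg adjustment over all tested genes. The fit was tested on simulated data. Exact permutation tests cannot go below 0.10 for 3 against 3 or 3 against 2 libraries. Python 3.11.15 with pandas 2.3.3 did the rest.

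The genes and lists were chosen with earlier results of these data known. Named besides them were other forkhead genes that were called or reached a mean of 10 FPKM, at most 4 genes of each list by call and size of change, and the 2 most alike genes over the libraries. The promoter letters were settled after longer motifs had hardly any match. ChIPseq and DNase data, Foxc2 and Foxf1 were not analysed here. Some genes of the lists are not reported here.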

Additional observations from a re-analysis of the deposited data

How the results depend on the processing

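Alternatives were a pseudocount of 0.1, no filter on low values, a filter of at least 10 FPKM in 1 library, no FPKM criterion, quantile normalisation, separate fits for each comparison, array weights, a common median, a fit without a trend, a block for the replicate number, and each of the 13 libraries left out. Of 28 changes of single forkhead genes recomputed under the 23 settings (22 for Foxc1, which the stricter filter removes), 3 changed direction, none of them called. Foxo1 from WT to Tal1-/- Flk-1+ cells became -0.05 without replicate 1 of WT Flk-1+ and -0.28 without replicate 0 of Tal1-/- Flk-1+, and ran from -0.28 to 0.48 with libraries left out. From WT Flk-1+ to WT HE1, Foxo3 became 0.09 without replicate 0 of WT Flk-1+, with a range of -0.26 to 0.09, and Foxp4 became 0.04 with array weights. Foxo1 kept both stage calls in all 23, at 3.0 to 3.92 in WT and 3.12 to 4.52 in Lmo2-/- cells. From Lmo2-/- Flk-1+ to Lmo2-/- HE1, the count of called forkhead genes fell from 3 to 1 in separate fits, with array weights and with the replicate block, and leaving out libraries gave 1 to 3. It was 1 without replicate 1 of Lmo2-/- Flk-1+ and without replicate 1 of Lmo2-/- HE1. Foxo3 lost this call in 10 settings and the Foxp1 row in 7. Over all 23 settings their changes ran from 0.08 to 1.22 and from 0.61 to 2.2. Between WT and Lmo2-/- HE1 the count fell from 1 to 0 after quantile normalisation, in separate fits and with array weights. Leaving out libraries gave 0 to 2: 0 without either WT HE1 library or replicate 1 of Lmo2-/- HE1, and 2, with Foxp4, without replicate 0 of Lmo2-/- HE1 or replicate 2 of WT Flk-1+. The interaction had 0 calls, and 0 to 1 with libraries left out, the 1 being the Foxp1 row without replicate 0 of Lmo2-/- HE1. Where a replicate is left out of HE1, the lone library is assumed to vary like the other groups. The causes of the changed calls were not tested, and fewer libraries enter the leave-one-out and separate fits.

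The replicate numbers come from column names, and nothing states that they pair libraries. Within Flk-1+ cells, deviations of WT and Lmo2-/- libraries with the same number correlated at -0.18, -0.18 and -0.01, and those of WT and Tal1-/- libraries at 0.17, 0.07 and 0.11. Lmo2-/- Flk-1+ and Lmo2-/- HE1 libraries correlated at 0.11 and 0.06. Not every pair passed 0.1, so the libraries were taken to share only a number. The block left 1 of the 3 calls in the Lmo2-/- stage comparison and changed no other count of called forkhead genes. The depth of each library beyond the minimum stated by the study is unknown. Values near 0 in replicate 1 of Lmo2-/- HE1 are the least certain.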
